A study of Homo sapiens with 16 samples.

Results

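The 10 genes described here encode the glucose transporter SLC2A1, the glycolytic enzymes HK1, HK2, PFKM, ALDOA, PGK1, ENO1, PKM and LDHA, and the kinase PDK1. They were chosen as a named list of glycolysis genes, by matching symbols to the Ensembl identifiers of the deposited count table, and are 10 of its 58787 identifiers. All 10 were found, and 9 had enough counts to be tested. ALDOA did not.

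The study knocked down TPX2, a microtubule-associated factor that activates Aurora A kinase during spindle assembly, in IMR32 cells, an established human neuroblastoma line with amplified MYCN. Its title names TPX2 as a target of eIF4A-dependent translation. Libraries were made from total RNA with Lexogen's QuantSeq kit, which reads a tag near the 3′ end of each transcript. Levels are therefore CPM (a gene's counts relative to its library total, scaled between libraries by TMM) with no division by transcript length. The 16 libraries form 4 groups of 4 replicates, and the column names of the table carry 48 h. One group received the non-targeting control siNTC. The others each received 1 of 3 siRNAs against TPX2, called si45, si46 and si47. All groups are the same cell line, and the series describes its replicates as biological. What libraries with the same replicate number share is not stated.

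Glycolysis splits glucose into pyruvate in the cytosol. SLC2A1 carries glucose across the membrane, hexokinases trap it by phosphorylation, and phosphofructokinase commits it to the pathway. Aldolase, phosphoglycerate kinase, enolase and pyruvate kinase carry the carbon to pyruvate, which lactate dehydrogenase A turns into lactate, while PDK1 restrains entry of pyruvate into mitochondria by inhibiting pyruvate dehydrogenase. HIF1 and MYCN are known regulators of many of these genes, and MYCN-amplified neuroblastoma cells are known for active glycolysis.

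Each gene has promoter windows in RefSeq on GRCh38.p14, from 250 bases before to 50 after a transcript start, and these hold short matches to the letters known from MYCN and HIF binding. CACGTG, the E-box that MYCN and related factors recognise, was in 3 of the 27 windows of the 10 genes, or 11.1%, against 7.26% of all 35116 windows. The 3 windows belong to HK2, LDHA and ALDOA. ACGTG, the shorter core of the HIF site, which CACGTG contains, was in 10 of 27 windows, or 37.0%, against 21.4% of all. GCGTG, the other core form, was in 10 of 27, again 37.0%, against 36.5% of all. Both strands were searched, and overlapping windows of the same gene were counted separately. A match describes these letters and is not a measured binding site. The windows below are printed to show where the E-box letters, in capitals, stand in the 3 genes, on the plus strand and 5′ to 3′.
HK2, chr2:74834967-74834990: tgctgcgccCACGTGggagggagc
HK2, chr2:74835012-74835035: cggcgagagCACGTGgagagaatc
LDHA, chr11:18394369-18394392: ctcccagcgCACGTGgagcagtct
LDHA, chr11:18394467-18394490: cccgactcaCACGTGggttcccgc
ALDOA, chr16:30064376-30064399: cagggaggcCACGTGatccgagtc
The HK2 matches begin 194 and 149 bases before the transcript start of their window, those of LDHA 185 and 87 bases before, and that of ALDOA 112 bases before. Whether these letters relate to the levels, the spread or the fold changes given below was not tested.

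Library totals ran from 5318159 to 7864343 counts. TPX2 was 327 ± 27.1 CPM (SD, n = 4) in siNTC, and the 12 knockdown libraries lay between 62.2 and 121 CPM, below all 4 controls. Its log2 fold change was -1.84 with si45, -2.0 with si46 and -2.20 with si47. Adrenergic neuroblast markers matched the labelled cell type, with 9 of 10 above 10 CPM in each group, while TH lay below. Their summed level was 5372 to 5722 CPM in siNTC, 5642 to 6128 with si45, 5816 to 6488 with si46 and 6070 to 6561 with si47. They did not move together: in edgeR 1 of 10 was lower with each siRNA (DBH, at 234 CPM in siNTC and 143, 169.9 and 167 with si45, si46 and si47), and 0, 1 and 3 were higher. Of all tested genes 1.34%, 3.4% and 9.74% were called in either direction. Of 10 mesenchymal, Schwann and fibroblast markers 2 were above 10 CPM in each group, their sums ran from 252 to 398 CPM, and SOX10 was at 0 throughout. Blood and endothelial markers summed to at most 2.97 CPM per library, with CD3E, HBB and LYZ at 0. The part of these marker levels in the results below was not tested. In bulk RNA, fewer cells of a kind and less RNA per cell cannot be told apart.

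In the main model, which does not pair libraries by replicate number, no glycolysis gene passed an adjusted p of 0.05 in any comparison. The model was edgeR's quasi-likelihood test over 14193 genes, with Benjamini-Hochberg adjustment over all of them. With si45 against siNTC 0 of 9 genes were called, where 1.34% of all tested genes were. With si46 it was 0 of 9 against 3.4%, with si47 0 of 9 against 9.74%, and for the mean of the 3 siRNAs 0 of 9 against 7.14%. DESeq2 and limma-voom also called 0 of 9 in each of these. At an unadjusted p under 0.05 the counts were 1 with si45, 2 with si46, 1 with si47 and 2 for the mean, where all tested genes gave 11.4%, 15%, 23.3% and 20.4%. Some other settings called 1 of 9, either HK2 or PKM. With the replicate number as a block PKM was called with si46, with si47 and for the mean, with the values given below.

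The intervals give the range of each estimated group difference in this unpaired model, for each gene and comparison taken singly. Of the 36 estimates of 95% intervals against siNTC (9 genes, 3 siRNAs and their mean), 30 included 0. Within 2-fold in either direction lay 35 whole intervals, and 28 lay within 1.5-fold. The exception to 2-fold was HK2 with si46. The median log2 fold change of the 9 genes was 0.04 with si45, 0.12 with si46, -0.01 with si47 and 0.06 for the mean, beside 0.00097, 0.0024, 0.0043 and -0.0011 over all tested genes. Of the 9 estimates 5 were above 0 with si45, 7 with si46, 4 with si47 and 5 for the mean, and the others were below.

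**Figure D1:**
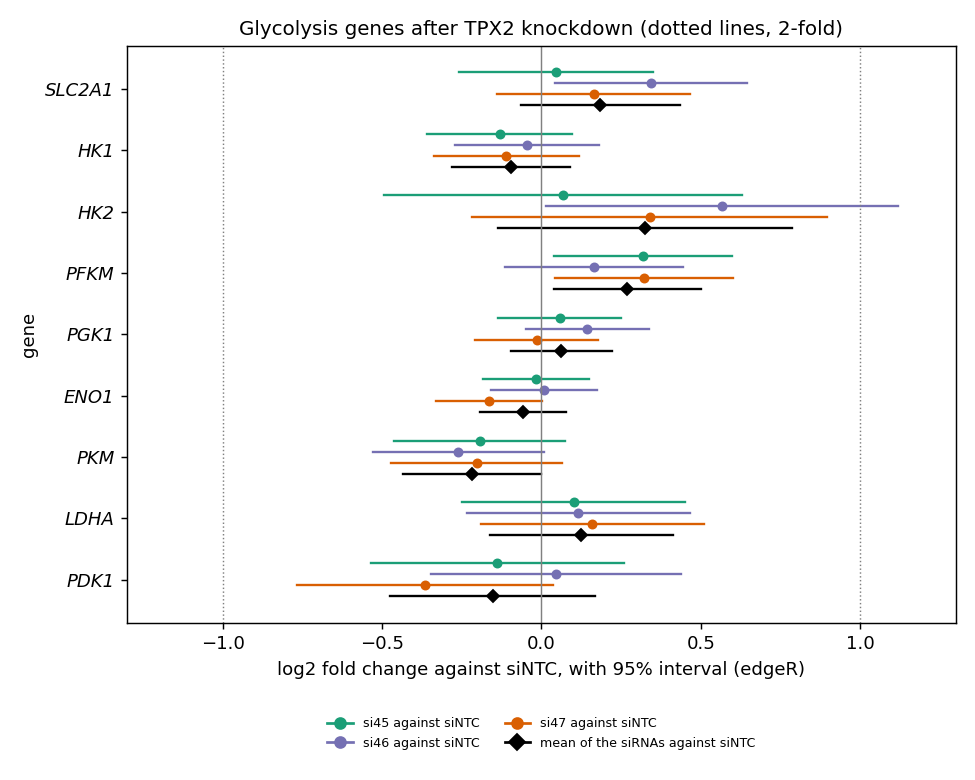
Log2 fold change against siNTC (x axis, edgeR) for each tested glycolysis gene (rows), with 95% intervals, for si45, si46, si47 and the mean of the 3 siRNAs. Dotted lines mark 2-fold; 30 of 36 intervals cross 0 and only the si46 interval of HK2 passes a dotted line.

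SLC2A1, or GLUT1, is the basal glucose transporter of most proliferating cells and lies on the minus strand of chromosome 1 (42925375 to 42959176, GENCODE v29 on GRCh38, as for all genes below). Its level was 25.2, 24.2, 26.9 and 20.1 CPM in siNTC replicates 1 to 4. With si46 it was 32.4, 29.6, 29.5 and 30.7 CPM, so that all 4 libraries lay above all 4 controls. Libraries higher than every control were found for 2 of 9 members with si46 (SLC2A1 and HK2), and for 5.06% of all tested genes. The si46 log2 fold change of SLC2A1 was 0.34 (SE 0.148, 95% interval 0.04 to 0.65), with an adjusted p of 0.245 in edgeR. With si45 the libraries read 23.9, 29.1, 20.6 and 25.7 CPM, and with si47 30.2, 20.3, 28.9 and 28.4 CPM. Both groups overlapped the controls, with log2 fold changes of 0.04 and 0.16.

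The hexokinases differed in level and in spread. HK1, the ubiquitous form bound to mitochondria (chromosome 10, 69269984 to 69401884, plus strand), read 105, 82.0, 87.9 and 97.1 CPM in siNTC. It read 70.2, 73.5, 91.4 and 105 CPM with si45, 90.0, 89.3, 94.9 and 86.1 with si46, and 80.3, 80.6, 85.0 and 98.7 with si47. All groups overlapped, and the log2 fold change of the mean was -0.10 (95% interval -0.28 to 0.09).

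HK2, the inducible form prominent in tumours (chromosome 2, 74833981 to 74893359, plus strand), read 25.3, 23.6, 29.3 and 18.2 CPM in siNTC. With si46 it read 29.6, 34.4, 36.4 and 42.8 CPM, where the lowest library stood just above the highest control. The si46 log2 fold change was 0.57 (SE 0.262, 95% interval 0.01 to 1.12), the largest estimate among the members in any comparison with siNTC, and its adjusted p in edgeR was 0.318. That call depended on the model: without the filter on low counts the adjusted p was 0.0203, and with only the si46 and siNTC libraries fitted it was 0.023, at the same log2 fold change. Under the other 2 siRNAs the replicates split. With si47 HK2 read 41.3, 21.0, 18.3 and 41.0 CPM, and with si45 33.2, 22.2, 16.3 and 29.3 CPM, so that replicates 1 and 4 were high and 2 and 3 low in both. Its log2 fold change was 0.34 with si47 (95% interval -0.22 to 0.90) and 0.07 with si45.

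PFKM, the muscle-type subunit of phosphofructokinase (chromosome 12, 48105139 to 48146404, plus strand), gave the smallest adjusted p of any member. Its libraries read 30.6, 36.4, 26.9 and 32.6 CPM in siNTC and 44.8, 33.4, 37.8 and 42.3 CPM with si47. With si45 they read 46.3, 36.1, 32.1 and 43.7 CPM, and with si46 33.8, 39.6, 35.0 and 33.9 CPM. The highest control overlapped the lowest library of each siRNA. Its log2 fold change was 0.32 with si45 (SE 0.137, edgeR adjusted p = 0.339), 0.17 with si46 and 0.32 with si47 (SE 0.137, edgeR adjusted p = 0.14). For the mean it was 0.27 (SE 0.113, 95% interval 0.04 to 0.50, edgeR adjusted p = 0.159).

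ALDOA, the main aldolase of most dividing cells, was nearly uncounted. It had 0, 5, 0 and 0 counts in siNTC, 0 in each si45 library, 3, 3, 0 and 1 with si46, and 4, 2, 0 and 0 with si47. A floor of 3 counts corresponds to 0.38 to 0.567 CPM in these libraries, so most libraries were at or under it, and no fold is given. ALDOA lies on the plus strand of chromosome 16 (30064164 to 30070457). In GENCODE v29 it shares 42.3% of its exonic bases, and 75.2% of its last 500, with AC093512.2, a protein-coding gene on the same strand (30053090 to 30070420), which had 0 counts in all 16 libraries. Reads that match both could have been left out by the counting, which is not given in the sources used here, and this was not tested. The level of ALDOA in these cells therefore cannot be read from the table. No other member shares any of its last 500 exonic bases with a gene on its strand.

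PGK1, the kinase of the first ATP-forming step (chromosome X, 77910739 to 78129296, plus strand), varied little. It read 133, 143, 121 and 152 CPM in siNTC, 147, 138, 128 and 160.4 with si45, 154, 142, 144 and 168 with si46, and 129, 139.9, 123 and 153 with si47. The groups overlapped, and the log2 fold change of the mean was 0.06 (95% interval -0.10 to 0.22).

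ENO1, the ubiquitous enolase (chromosome 1, 8861000 to 8879250, minus strand), was the second most counted member. It read 756, 865, 767 and 911 CPM in siNTC, 769, 842, 785 and 862 with si45, and 846, 736, 859 and 874 with si46. With si47 it read 679, 780.2, 725 and 761 CPM, the lowest group mean, at 736 ± 44.4 against 825 ± 75.3 CPM in siNTC (SD, n = 4). The si47 log2 fold change was -0.16 (SE 0.0820), and the edgeR adjusted p was 0.223. Its 4 named pseudogenes held 304 counts in all, 0.393% of the sum with ENO1 itself.

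PKM, pyruvate kinase, whose isoforms these gene counts do not separate (chromosome 15, 72199029 to 72231822, minus strand), was the most counted member. It read 1919.8, 1547, 1879 and 1752 CPM in siNTC. It read 1341, 1302, 2055 and 1509 CPM with si45, 1399, 1359, 1657 and 1507 with si46, and 1241, 1498, 1831 and 1595 with si47. Group means were lower with each siRNA, but every group overlapped the controls, and si45 replicate 3 was the highest library of all. The log2 fold change was -0.19 with si45, -0.26 with si46 and -0.20 with si47. For the mean it was -0.22 (SE 0.104, 95% interval -0.44 to -0.0027), with an edgeR adjusted p of 0.237. Without si45 replicate 3 the si45 log2 fold change became -0.36 (edgeR adjusted p = 0.0493) and that of the mean -0.28 (edgeR adjusted p = 0.0194), both past the threshold. That library also had the most TPX2 among the knockdown libraries, at 121 CPM. Without the filter on low counts the mean gave an adjusted p of 0.0305 at -0.22. With the replicate number as a block PKM passed with si46 (-0.27, edgeR adjusted p = 0.0186) and with si47 (-0.21, edgeR adjusted p = 0.0453). It also passed for the mean (-0.23, edgeR adjusted p = 0.0065), and did not pass with si45. GAPDH, the glycolytic dehydrogenase and a gene outside the list, read 5586, 5105 and 5549 CPM in replicate 3 of si45, si46 and si47, again the highest library of each group.

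LDHA (chromosome 11, 18394388 to 18408425, plus strand) read 174, 203, 165 and 188 CPM in siNTC. It read 212, 221, 143 and 206 CPM with si45, 177, 220.2, 156 and 238 with si46, and 179, 230.1, 157 and 249.7 with si47. The siRNA groups spanned the controls on both sides. For the mean the log2 fold change was 0.13 (95% interval -0.16 to 0.41), and the edgeR adjusted p was 0.668.

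PDK1 (chromosome 2, 172555373 to 172608669, plus strand) read 18.6, 29.2, 17.8 and 21.2 CPM in siNTC and 15.2, 19.8, 14.8 and 17.8 with si47. It read 16.9, 26.9, 13.4 and 21.8 CPM with si45, and 20, 29.1, 20 and 20.9 with si46. Its si47 log2 fold change was -0.37 (95% interval -0.77 to 0.04, edgeR adjusted p = 0.266), the lowest estimate among the members in the comparisons with siNTC.

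**Figure D2:**
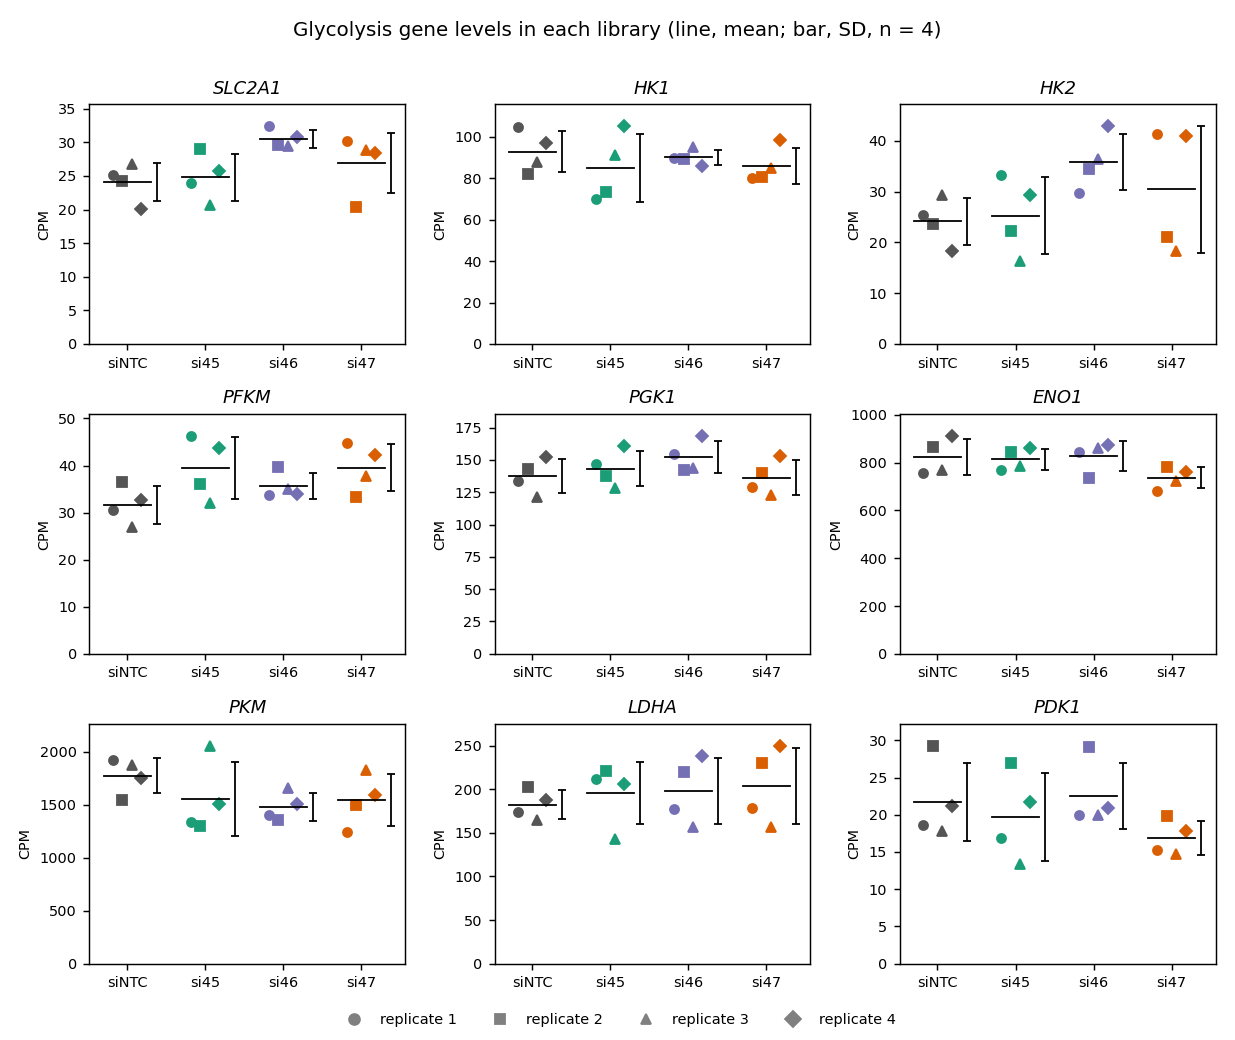
CPM (y axis, from 0) of each tested glycolysis gene in each of the 16 libraries, by siRNA (x axis); markers give the replicate number, lines the mean and bars the SD (n = 4). SLC2A1 and HK2 with si46 are the cases where 4 siRNA libraries stand above the 4 controls.

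The siRNAs, which share TPX2 as their target, were also compared with each other. Again edgeR called 0 of 9 members in each pair, where 0.0282% of all tested genes were called for si46 against si45, 0.169% for si47 against si45 and 0.0493% for si47 against si46. DESeq2 and limma-voom also called 0 of 9 in each pair. At an unadjusted p under 0.05 the members counted 0, 0 and 2, beside 4.1%, 10.4% and 7.29% of all genes. The 2 were ENO1 and PDK1, both lower with si47 than with si46. PDK1 had 4 si47 libraries below the 4 of si46, which held for 1.97% of all genes, and a log2 difference of -0.41 (95% interval -0.81 to -0.01, edgeR adjusted p = 0.67). For ENO1 the difference was -0.17 (edgeR adjusted p = 0.672), and the libraries overlapped. SLC2A1 had its 4 si46 libraries above the 4 of si45, as did 1.35% of all genes, with a log2 difference of 0.30 (95% interval -0.0007 to 0.60). Replicate numbers were taken to pair the si45 and si47 libraries, by the rule on shared deviations given below. With the replicate number as a block that pair gave 398 called genes in place of 24, and still 0 members. For si46 against si45 the block gave 33 in place of 4, and for si47 against si46 108 in place of 7, with 0 members in each.

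Several members had their extreme library at the same replicate number in every group. LDHA was lowest in replicate 3 of all 4 groups, by a mean of -0.31 on the log2 scale from its group mean, which 2.06% of all tested genes also were. PDK1 was highest in replicate 2 of all 4 groups, at 0.39 above its group mean, as were 1.82% of genes. PGK1 was highest in replicate 4 of all 4 groups, at 0.16, as were 1.21% of genes. Each of these shares counts only that replicate number and that direction. Such shares ran from 0.571% (lowest in replicate 1) to 2.24% (highest in replicate 3). The share of genes extreme at any number in either direction is larger and was not counted. Whether these members are unusual in this was therefore not tested. PKM went the other way from LDHA, with replicate 3 highest under each siRNA and second in siNTC.

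**Figure D3:**
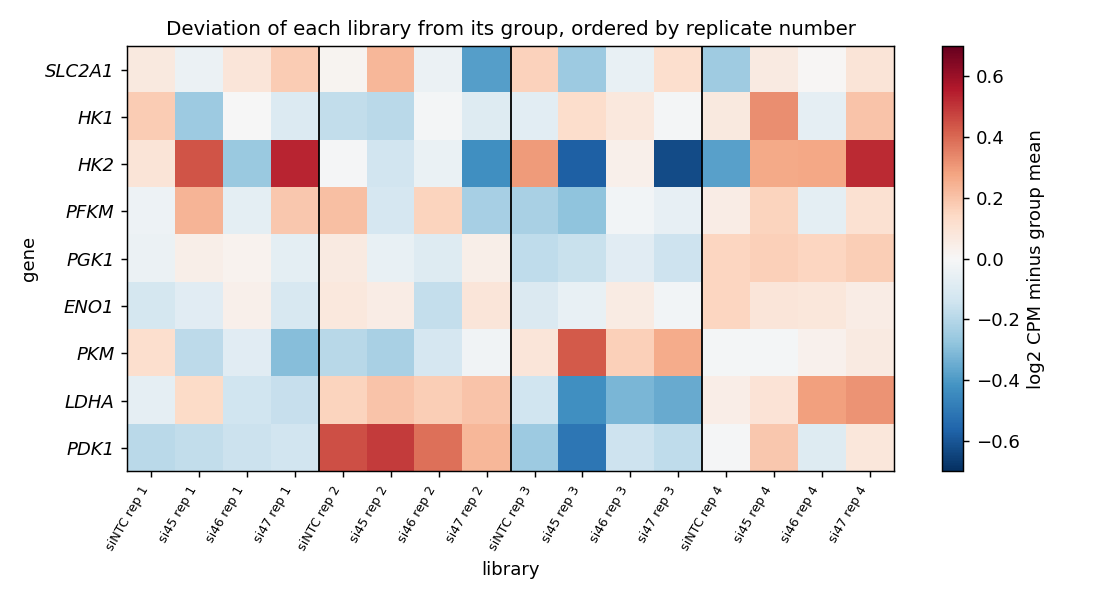
Log2 CPM of each tested glycolysis gene (rows) minus its group mean (colour), with the 16 libraries (columns) ordered by replicate number. LDHA is low across replicate 3 and PDK1 high across replicate 2 in all 4 groups, while PKM is high in replicate 3 under the 3 siRNAs.

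The spread inside groups set how small a difference could be called. HK2 had a within-group SD of 0.42 on the log2 scale, above 98.1% of genes of like level (within 0.5 log2 units), whose median was 0.212. LDHA had 0.26, above 95.8% of its neighbours, whose median was 0.126. PKM had 0.21, above 89.1%, with a neighbours' median of 0.116. PDK1 lay at 82.9% and HK1 at 71.2%, while PGK1, PFKM, ENO1 and SLC2A1 lay between 31.3% and 48.9%. The genes with the widest spread thus include PKM and LDHA, which have ample counts.

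The order of levels in siNTC placed PKM first at 1774 ± 167 CPM, then ENO1 at 825 ± 75.3, LDHA at 182 ± 16.6, PGK1 at 138 ± 13.3 and HK1 at 92.9 ± 10.02 CPM (SD, n = 4). PFKM followed at 31.6 ± 4.0, HK2 and SLC2A1 at 24.1 ± 4.6 and 24.1 ± 2.86, and PDK1 at 21.7 ± 5.24 CPM. The siNTC libraries of the first 5 did not overlap with those of their neighbours in this order, and those of the last 4 did. PKM and ENO1 together held 78.2% to 86.5% of the members' counts. All 10 genes together took 0.311% ± 0.0085 of the counts in siNTC, 0.291% ± 0.024 with si45, 0.287% ± 0.0174 with si46 and 0.277% ± 0.0214 with si47 (SD, n = 4).

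Isoenzyme pairs were compared inside each library, as log2 ratios of counts with 0.5 added, by two-sided exact permutation tests of the 12 knockdown against the 4 control libraries, adjusted over 5 ratios. LDHA to LDHB, the pair that sets the make-up of lactate dehydrogenase tetramers, was 0.221 in siNTC, 0.240 with si45, 0.246 with si46 and 0.251 with si47 (geometric means). LDHB shares 33.4% of its exonic bases, and 46% of its last 500, with another gene on its strand, and what this did to its counts, and so to the level of the ratio, was not tested. It was lowest in replicate 3 of each group, between 0.173 and 0.189, and its log2 difference of 0.15 gave an exact p of 0.364 (adjusted 0.606). HK2 to HK1 was 0.258 in siNTC, 0.291 with si45, 0.395 with si46 and 0.332 with si47. Its difference of 0.39 gave an exact p of 0.169 (adjusted 0.582). For si46 alone against siNTC the exact p was 0.0571, where 4 against 4 libraries allow no p below 0.0286.

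ENO1 to ENO2, the ubiquitous against the neuronal enolase, stood between 8.43 and 8.59 in the 4 groups. The difference of -0.03 gave an exact p of 0.793 (adjusted 0.885). SLC2A1 to SLC2A3, the basal against the neuronal glucose transporter, was 4.80 in siNTC, 3.92 with si45, 3.51 with si46 and 3.97 with si47. The difference of -0.34 gave an exact p of 0.233 (adjusted 0.582), with SLC2A3 at 4.01 to 12.1 CPM over all libraries. ALDOA to ALDOC rests on the few ALDOA counts above and gave 0.16 with an exact p of 0.885 (adjusted 0.885). No ratio passed.

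**Figure D4:**
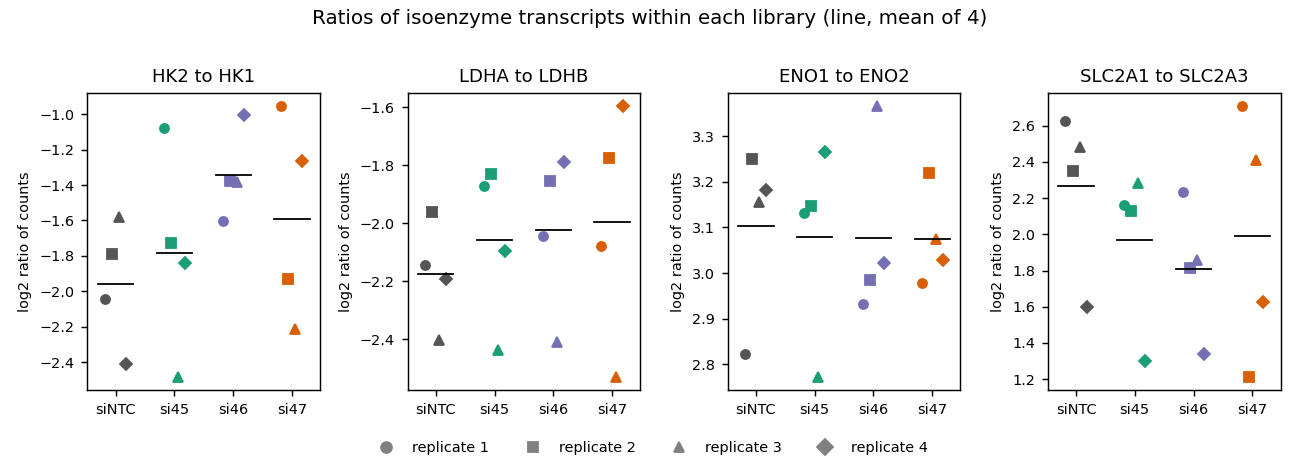
Log2 ratio of counts for 4 isoenzyme pairs (panels, y axes not starting at 0) in each library by siRNA (x axis); lines are means of 4 and markers the replicate number. The knockdown libraries overlap the controls in each panel, and LDHA to LDHB is lowest in replicate 3 of each group.

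Around the members, the rest of the chain was tested in the same way. Of 24 further transporters and enzymes 14 were tested. In edgeR 0 were called with si45, 1 lower with si46, 2 lower with si47 and 1 lower for the mean, against 1.34%, 3.4%, 9.74% and 7.14% of all genes. At an unadjusted p under 0.05 the counts were 0, 3, 4 and 4 of 14 for si45, si46, si47 and the mean, beside 11.4%, 15%, 23.3% and 20.4% of all genes. The genes called were SLC2A4 and PFKP.

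SLC2A4, the insulin-responsive transporter of muscle and fat, was low throughout. It read 8.18, 6.10, 3.59 and 5.03 CPM in siNTC, 0.506, 1.27, 2.53 and 3.73 with si46, and 1.73, 2.0, 3.19 and 2.54 with si47. It fell by 1.55 on the log2 scale with si46 (SE 0.423, edgeR adjusted p = 0.0312) and by 1.28 with si47 (SE 0.413, edgeR adjusted p = 0.0439). The si47 libraries lay below all controls and the si46 libraries overlapped them. The share of all tested genes with si47 libraries below all controls is not given here. For the mean it fell by 1.07 (SE 0.315, edgeR adjusted p = 0.0319). Each call was lost when single libraries were left out. Without siNTC replicate 1, 2 or 4 the adjusted p became 0.144, 0.0729 and 0.0536 with si46, 0.168, 0.0883 and 0.0639 with si47, and 0.209, 0.0914 and 0.0614 for the mean. Without si46 replicate 1 or 2 it was 0.12 and 0.112 with si46. Without si47 replicate 1, 2 or 4, or si45 replicate 4, it was 0.128, 0.101, 0.075 and 0.0505 with si47. The si47 call was also lost in limma-voom, at -1.25 with an adjusted p of 0.0505.

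PFKP, the platelet-type phosphofructokinase subunit, read 89.0, 103, 80.4 and 97.0 CPM in siNTC and 75.9, 77.8, 68.2 and 75.0 with si47. It fell by 0.31 on the log2 scale with si47 (SE 0.0965, edgeR adjusted p = 0.0316). The si47 and siNTC libraries of PFKP did not overlap, again without a share for all tested genes. PFKM, the member of the same family, was at 0.32 under this siRNA, and a difference between the subunits was not tested. The PFKP call was lost without siNTC replicate 2 or 4 (0.135 and 0.0934), without si47 replicate 1, 3 or 4 (0.0647, 0.0786 and 0.0586), without the filter (0.0606) and with only the groups compared fitted (0.0556). With si45 and si46 PFKP was at 0.04 and 0.12.

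The steps between the members gave no call. GAPDH was at -0.13 for the mean of the siRNAs (edgeR adjusted p = 0.436), TPI1, triose phosphate isomerase, at -0.06 (0.656) and LDHB at -0.04 (0.792). PGAM1, the main phosphoglycerate mutase, had 2 to 29 counts per library and was not tested. GPI, glucose-6-phosphate isomerase, singled out after its values were seen, read 327 to 335 CPM in the 4 controls and 241 to 324 CPM in the 12 knockdown libraries. No knockdown library reached a control, which held in this direction for 1.03% of genes, and its estimate for the mean was -0.17 on the log2 scale (SE 0.0667, adjusted p = 0.12 in edgeR).

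Among 23 regulators of glycolysis and of pyruvate's fate 19 were tested, and edgeR called none in the 4 comparisons with siNTC, where 1.34%, 3.4%, 9.74% and 7.14% of all genes were called (si45, si46, si47 and the mean). At an unadjusted p under 0.05 the counts were 1, 0, 1 and 1 of 19, beside 11.4%, 15%, 23.3% and 20.4% of all genes. TIGAR, the fructose bisphosphatase induced by p53, had 0 to 3 counts per library. All 7 pentose phosphate genes were tested and edgeR called none, against the same shares of all genes. At an unadjusted p under 0.05 there were 1, 2, 0 and 1 of 7, beside 11.4%, 15%, 23.3% and 20.4% of all genes.

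Of 19 hypoxia factors and responsive genes 16 were tested, to set beside the members that HIF1 is known to control. In edgeR 0 were called with si45, 1 higher with si46, 1 higher and 1 lower with si47, and 1 higher for the mean, against 1.34%, 3.4%, 9.74% and 7.14% of all genes. At an unadjusted p under 0.05 the counts were 2, 2, 4 and 2 of 16, beside 11.4%, 15%, 23.3% and 20.4%. HIF1A itself was at -0.16 for the mean (adjusted p = 0.263 in edgeR) and VEGFA, the angiogenic factor, at -0.03 (0.96). With si45 HIF1A was at -0.30 (edgeR adjusted p = 0.144), with si46 at -0.04 and with si47 at -0.13. The si45 value passed with the replicate number as a block (-0.31, edgeR adjusted p = 0.0289). It also passed without si45 replicate 4 (-0.40, edgeR adjusted p = 0.0366). CA9, a hypoxia-induced carbonic anhydrase, had 0 counts in all libraries.

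The called gene that rose was DDIT4, an inhibitor of mTORC1 induced by several stresses. It read 14.6, 24.7, 14.8 and 21.9 CPM in siNTC, 35.2, 38.4, 19.6 and 24 with si45, 34.1, 39.6, 31.5 and 42.3 with si46, and 55.8, 72.8, 35.5 and 53.0 with si47. Its log2 fold change was 0.95 with si46 (SE 0.237, edgeR adjusted p = 0.0303) and 1.51 with si47 (SE 0.234, edgeR adjusted p = 3.06e-04). With si45 it was 0.63 (edgeR adjusted p = 0.284), and without the filter on low counts this passed, at 0.64 (edgeR adjusted p = 0.00427). The si46 call was lost without siNTC replicate 1, 3 or 4 (0.101, 0.0946 and 0.0529) or si46 replicate 1, 2 or 4 (0.0563, 0.102 and 0.0999). DDIT4 overlaps DDIT4-AS1 on the other strand, which had 1 count in all.

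AK4, a mitochondrial adenylate kinase and known HIF1 target, read 44.1, 58.2, 51.8 and 61.6 CPM in siNTC and 25.5, 45.7, 32.8 and 27.8 with si47. It fell by 0.72 on the log2 scale with si47 (SE 0.155, edgeR adjusted p = 0.00274), though its highest si47 library overlapped the lowest control. With si45 and si46 it was at 0.20 and 0.09. In the unpaired model AK4 was also lower with si47 than with si45 (edgeR adjusted p = 0.0039) and than with si46 (edgeR adjusted p = 0.0295). Values of AK4 for these pairs with the replicate number as a block are not given here.

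As a description of which transcripts moved with the members over the 16 libraries, each member's log2 CPM was centred and scaled and the 9 were averaged. The members themselves correlated unevenly with that average, from 0.86 for PGK1 to -0.35 for PKM. The other genes most like it were TM2D1 (r = 0.81), IMPDH2, the guanine nucleotide synthesis enzyme (0.79), NOL6, a nucleolar protein (0.77), BMT2 (0.77) and IL4R (0.77). The libraries share depth and replicate number, and these were the highest of all tested genes, so no p is given.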

How the data were processed

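The authors deposited raw counts per Ensembl gene, whole numbers, in 1 table for the 16 libraries. FastQC 0.11.7, STAR 2.7.2b, edgeR 3.36.0, limma 3.50.3 and GRCh38 are named in the submitters' processing notes. The counter, the use of strand and the treatment of reads with several matches are not given in the sources used here. Groups came from the siRNA in the labels and columns were matched by siRNA and replicate number. Symbols matched 58434 identifiers, and GENCODE v29 held 58515. The members, lists, tests and named genes were chosen with earlier results of these data known. Named genes were the 10 members, TPX2, 7 pathway genes whatever their values, isoenzyme partners, called genes of 4 lists and the 5 most alike.

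Counts were fitted in R 4.3.3 with edgeR 4.0.16 (filterByExpr with minimum count 10 and minimum total 15, TMM, robust quasi-likelihood, group means over 16 libraries, prior count 0.125, threshold 0.05). The SE is the fold change divided by the square root of F. Alternatives included DESeq2 1.42.0 and limma-voom 3.58.1. The edgeR fit was also run on simulated counts with independent libraries and no replicate-number structure, which does not measure its power in these data. Totals had a median of 5966582 counts, and floors cover counting error only. Replicate pairs differed beyond sampling noise (chi-square per degree of freedom 4.58 to 10.6), and p-values measure the spread between these libraries. Numbers were taken to pair libraries where all 4 same-number deviation correlations passed 0.1, a chosen cut-off, which held for si45 with si47 (0.12 to 0.242). In the other pairs of groups these correlations were all above 0, from 0.0188 (siNTC with si47) to 0.247 (si45 with si46). The main comparisons with siNTC were fitted without pairing, so any weaker pairing was not modelled in them.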

Additional observations from a re-analysis of the deposited data

Results flagged for a closer look

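Of 60 groups of 4 libraries examined for a single distant library, 3 had one by Dixon's ratio, and chance gives about 3. PDK1 in si46 replicate 2 was 29.1 CPM while the other si46 libraries lay between 20 and 20.9 CPM. The log2 ratio of SLC2A1 to SLC2A3 in si45 replicate 4 was 1.298, with the others between 2.13 and 2.29. TPX2 in si45 replicate 3 was 121 CPM, with the others between 79.4 and 85.1 CPM.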

How the results depend on the processing

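The count of called members was 0 in all 7 comparisons and became 1 in these cases. Without the low-count filter it was 1 with si46 (HK2) and 1 for the mean (PKM), and with only the compared groups fitted 1 with si46 (HK2). With the replicate number as a block it was 1 with si46, 1 with si47 and 1 for the mean, each time PKM, at -0.27, -0.21 and -0.23 (edgeR adjusted p = 0.0186, 0.0453 and 0.0065). The block also brought DDIT4 with si45 past the threshold, at 0.63 (edgeR adjusted p = 0.00436), and HIF1A with si45, at -0.31 (edgeR adjusted p = 0.0289). Leaving out 1 library gave 0 to 1 with si45 and for the mean (PKM, without si45 replicate 3) and 0 elsewhere. Same-number deviations correlated over 0.1 in all 4 pairs for si45 with si47 alone, so for the controls the block is given as an alternative only. Yet in 42 of 48 combinations of a library and another group, a library correlated best with its own number. For the siNTC libraries this held for 4 of 4 with si45, 2 of 4 with si46 and 3 of 4 with si47. The chosen cut-off therefore does not show that the controls are unpaired. The block raised called genes from 482 to 1073 with si46, 1382 to 2198 with si47, 1014 to 1817 for the mean and 190 to 577 with si45. Omitting si45 replicate 3 gave 406 called genes with si45 and 1388 for the mean. Without the low-count filter 690 genes were called with si46 and 1268 for the mean. With only the compared groups fitted 631 were called with si46. The causes were not tested.

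Of 900 member values under alternatives 867 kept direction and side, 8 passed the threshold and 25 changed sign, all 25 by leaving out a library and at most 0.10 from 0. Leave-one-out ranges on the log2 scale with a change of sign were, with si45, -0.035 to 0.12 for SLC2A1, -0.088 to 0.23 for HK2, -0.0033 to 0.11 for PGK1, -0.058 to 0.030 for ENO1, -0.32 to 0.046 for PDK1, -0.019 to 0.10 for PFKP and -0.015 to 0.052 for TPI1. With si46 they were -0.099 to 0.016 for HK1, -0.034 to 0.059 for ENO1, -0.10 to 0.23 for PDK1, -0.041 to 0.017 for TPI1 and -0.16 to 0.14 for VEGFA. With si47 they were -0.076 to 0.039 for PGK1 and -0.20 to 0.28 for VEGFA, which limma-voom put at -0.0097. For the mean they were -0.24 to 0.031 for PDK1, -0.11 to 0.0097 for PFKP and -0.16 to 0.094 for VEGFA. Leaving out a library moved the log2 ratio of ENO1 to ENO2 between -0.12 and 0.023 and that of ALDOA to ALDOC between -0.22 and 1.07, and a pseudocount of 2 put the latter at -0.00029. ALDOA, TIGAR and PGAM1 had too few counts to test; whether depth or the counting of shared reads limits them was not tested.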
